A study of Sparus aurata with 9 samples.

Results

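In the liver of gilthead sea bream carrying a slow-release cortisol implant, 97 of 9955 measured array sequences (0.974%) stood apart at day 14. Their day 7 mean stayed within a fold of 2 of the control mean. Of the 97 sequences, 58 were raised and 39 lowered at day 14. A sequence was taken when the mean of the day 14 arrays differed by 1 or more on the log2 scale, in the same direction, from the mean of the control arrays and from the mean of the day 7 arrays. The day 7 mean also had to lie within 1 of the control mean, and the 3 day 14 arrays had to lie all above or all below the other 6. A log2 difference of 1 is a fold of 2. The measured values themselves chose the sequences, so their levels and differences are given as a description without a test. The same conditions turned to day 7 selected 82 sequences, 21 raised and 61 lowered, while 102 sequences were raised and 130 lowered at both times.

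The samples were liver RNA of adult gilthead sea bream (Sparus aurata), on 9 one-colour Agilent arrays in 3 groups of 3. D14 fish received an intraperitoneal coconut oil implant with 200 µg of cortisol per g body weight, as hydrocortisone hemisuccinate, and were sampled after 14 days. D7 fish received the same implant and were sampled after 7 days. Control fish received no cortisol. One label gives the Control fish no treatment, the protocol describes implants of coconut oil alone and also an untreated group taken on day 0, and no sampling day is given for the Control arrays. The fish weighed 108 g on average and were held at 15 °C, and per the protocol they were fasted throughout. D14 fish were thus fasted and held for longer than D7 fish, and no Control array is tied to day 14. Longer cortisol exposure, longer fasting and time itself therefore cannot be told apart at day 14. Each array held the RNA of 2 pooled fish, so an SD here is that of different pools, and the 9 arrays stand for 18 fish. Precision is limited by having 3 arrays per group.

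Cortisol is the main glucocorticoid of bony fish and is released by interrenal cells of the head kidney under stress. It enters cells and binds glucocorticoid and mineralocorticoid receptors, which act as transcription factors in the nucleus. In fish liver it is known for promoting gluconeogenesis and amino acid breakdown, and a long elevation is used as a model of chronic stress.

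No gene can be named for any of the 97 sequences. The files identify each by a clone or contig number, and of the 15156 names on the array none occurs among the 32006 genes listed for assembly fSpaAur1.1. The labelled tissue was for the same reason not checked against liver markers, and the glucocorticoid, metabolic and immune gene lists were not tested. In bulk RNA, a change in the number of cells of a type and a change in RNA per cell cannot be told apart.

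A value is the log2 processed signal of a sequence minus the 75th percentile of its array, so 0 is the level of a bright spot of that array and dim spots have values well below 0. A probe is called well above background where the scanner software marked at least 50% of its spots so. Each array had 43803 non-control spots, of which 34.7% to 65.2% passed that mark and none was saturated. A sequence was measured where it had a probe passing the mark on 3 or more arrays. D14 pool 1 stood apart with the lowest share. The median value of probes not above background was -3.12 on D14 pool 1 and between -5.99 and -4.43 on the other 8 arrays, so readings at background stood higher on the scale of that array. The arrays lay on 3 slides: slide 1 held D14 pool 3, D7 pool 3 and Control pools 1 and 3, slide 2 held D14 pool 1 and D7 pool 1, and slide 3 held pool 2 of every group.

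Across all 9955 measured sequences, the D14 arrays all lay above the other 6 in 373 (3.75%) and all below in 356 (3.58%). D14 exceeded Control by 1 or more in 555 (5.58%) and D7 in 399 (4.01%), and was lower by 1 or more than Control in 549 (5.51%) and than D7 in 321 (3.22%). These are the conditions that chose the 97, all of which meet them by construction. With limma over all measured sequences, 42 (0.422%) differed between D14 and Control at a Benjamini-Hochberg adjusted p under 0.05, 21 higher (0.211%) and 21 lower (0.211%). Leaving out D14 pool 2 or 3, or Control pool 1 or 3, took this count to 0, leaving out D7 pool 1 to 71, D7 pool 2 to 22, D7 pool 3 to 76 and Control pool 2 to 74. Of the 97 sequences, 8 were among the 42, 3 raised and 5 lowered. The selection used the same difference between D14 and Control, so it favours such an overlap, which is no test of the 97. Between D14 and D7 limma called 0 sequences (0.0%), with 1144 (11.5%) at an unadjusted p under 0.05. That count was 1 without D7 pool 3 and without D14 pool 1, and 60 with arrays weighted by quality. Between D7 and Control it called 44 (0.442%), but 13, 8 and 22 without D7 pools 1, 2 and 3, 6 and 1 without D14 pools 2 and 3, 0 without Control pool 1 or 3 and 128 without Control pool 2. Leaving out D14 pool 1 changed the counts less, to 33 for D14 against Control and 35 for D7 against Control. Calls in these 2 comparisons thus turned on some single arrays, while D14 against D7 stayed at 0 or 1 whichever array was left out.

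**Figure D1:**
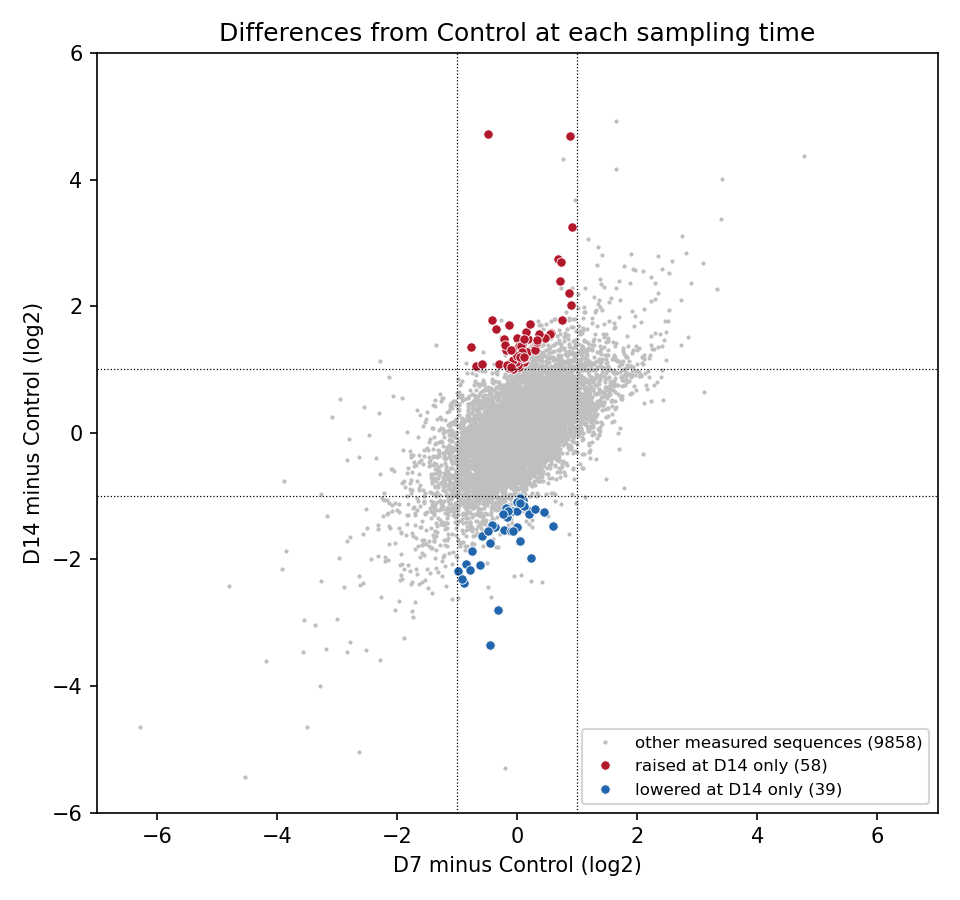
Difference of the D7 mean from the Control mean (x axis, log2) against the difference of the D14 mean from the Control mean (y axis, log2), 1 point per measured sequence. The 58 raised sequences (red) lie above 1 on the y axis and the 39 lowered ones (blue) below -1, all between -1 and 1 on the x axis as the selection requires, and 2 raised sequences lie above 4.

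The 58 raised sequences had a median D14 minus Control of 1.38 (range 1.01 to 4.72), which is a median fold of 2.60 and a largest fold of 26.4. Their median D14 minus D7 was 1.25 (range 1.01 to 5.21). The sequence at the top of both ranges was well above background on no D7 array and on 1 Control array. These largest sizes are thus taken mostly against readings at background. Most changes were close to the size that the selection asked for: 8 of the 58 differed from Control by at least 2, and 10 were past 1.5 in both differences. The D14 mean had a median of -0.74 and ran between -3.39 and 4.47, the D7 mean had a median of -2.49, and the Control mean a median of -2.38. A level depends on the probe as well as on the transcript, so levels of different sequences are not compared.

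The 39 lowered sequences had a median D14 minus Control of -1.49 (range -3.35 to -1.02). Written as Control over D14, the median fold was 2.81 and the largest 10.2. Their median D14 minus D7 was -1.24 (range -2.89 to -1.0). Of the 39, 8 differed from Control by at least 2 in size, and 4 were past 1.5 in both differences. The median of their means was -1.72 in D14, -0.40 in D7 and -0.25 in Control.

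The 4 sequences given by name had the widest gap between the D14 arrays and the nearest other array, 2 in each direction, among the 30 raised and 33 lowered sequences whose brighter side was well above background on every array in all measured probes. Seabream_2006-01-03-CL5059Contig1, a raised sequence with 1 probe, had values of -0.59, -1.03 and -1.36 in D14 pools 1, 2 and 3, against -3.84, -2.15 and -3.19 in D7 pools and -4.31, -3.89 and -2.99 in Control pools. The lowest D14 pool was above the highest D7 pool by 0.80, while the D7 and Control pools overlapped. The means were -0.99 ± 0.38 in D14, -3.06 ± 0.85 in D7 and -3.73 ± 0.67 in Control (SD, n = 3 each), a difference of 2.74 from Control and 2.07 from D7 (SE 0.48 in both). It was well above background on all 3 D14 arrays, on 2 D7 arrays and on 1 Control array, so outside D14 it was often too dim to be told from background. With normexp background correction the differences were 1.17 from Control and 0.76 from D7.

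The other raised sequence, cDN11P0004I17.F.ab1, was well above background on all 9 arrays. Its 3 probes averaged 2.12, 2.66 and 2.49 in D14 pools 1, 2 and 3, against 1.35, 0.98 and 1.27 in D7 pools and 1.34, 1.28 and 1.26 in Control pools. All D14 pools were higher than all others, and the D7 and Control pools lay within 0.4 of each other. The means were 2.42 ± 0.27 in D14, 1.20 ± 0.20 in D7 and 1.29 ± 0.04 in Control (SD, n = 3 each), with differences of 1.13 from Control and 1.23 from D7 (SE 0.22 in both). Its probes differed from Control by 1.06, 1.18 and 1.16, and from D7 by 1.13, 1.00 and 1.55. With normexp the differences of the sequence were 0.78 and 0.88, under the size the selection asks for.

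The lowered sequence with the widest gap was cDN14P0004O13.F.ab1, with 1 probe. It had values of -1.62, -1.87 and -1.68 in D14 pools 1, 2 and 3, against 2.22, 0.76 and 0.52 in D7 pools and 2.81, -0.09 and 2.15 in Control pools. The D14 pools were close together and the D7 and Control pools were spread over more than 2 log2 units, Control pool 2 being the lowest of them. The means were -1.72 ± 0.13 in D14, 1.17 ± 0.92 in D7 and 1.62 ± 1.52 in Control (SD, n = 3 each). The differences were -3.35 from Control and -2.89 from D7 (SE 0.71 in both), the largest of the 39 lowered sequences, and the spread between Control pools was larger than that between D14 pools. With normexp they were -2.19 and -1.71.

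Seabream_2006-01-03-CL4069Contig1, lowered and with 1 probe, had values of -2.45, -1.16 and -1.02 in D14 pools 1, 2 and 3, against 0.26, 0.02 and 0.34 in D7 pools and 0.23, 0.12 and 0.13 in Control pools. The D7 and Control pools formed a narrow band that no D14 pool came within 1.05 of. The means were -1.54 ± 0.79 in D14, 0.21 ± 0.16 in D7 and 0.16 ± 0.06 in Control (SD, n = 3 each), with differences of -1.70 from Control and -1.75 from D7 (SE 0.36 in both). With normexp they were -0.92 and -0.96, under the size the selection asks for. Both named lowered sequences were well above background on 2 of the 3 D14 arrays, pool 1 being the exception.

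**Figure D2:**
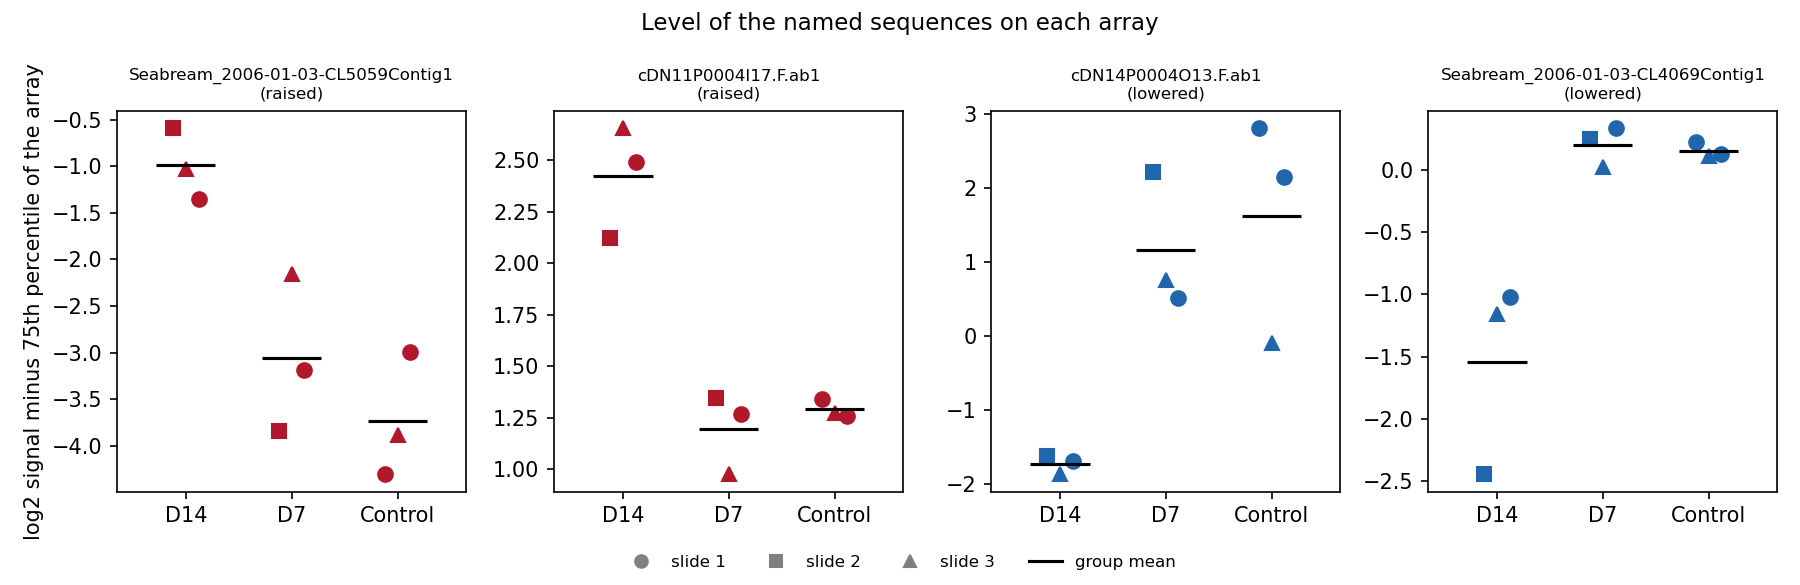
Level of the 4 named sequences (y axis, log2 processed signal minus the 75th percentile of the array; each panel has its own scale) on each of the 3 arrays of D14, D7 and Control, with the marker shape giving the slide and the bar the group mean. No D14 array overlaps another group in any panel, and the nearest gap runs between 0.77 and 1.53.

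Other sequences stood out by size. A raised sequence known by a clone number had the widest gap of all 97, 1.97, with values of -1.04, -0.06 and -0.07 in D14 pools 1, 2 and 3, against -3.01, -5.22 and -4.38 in D7 pools and -5.05, -4.36 and -5.82 in Control pools. All D14 pools were higher than any other array, and D7 pool 1 was the nearest. No Control array showed it well above background, so its fold of 25.8 over Control is taken against readings at background. The lowest value of a probe well above background, used as a floor, was -5.32, -4.93 and -6.30 on Control pools 1, 2 and 3. The Control readings already lay above it, so the floor could not change that fold and gives it no support. On D14 pool 1 its 2 measured probes read -0.40 and -1.68, and the second read -1.76 on D7 pool 1. Both measured probes were well above background on 2 of the 3 D14 arrays. Its remaining probe, which did not enter the value, was well above background on 2 D14 arrays and on no D7 or Control array.

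The raised sequence with the largest difference was high in pools 2 and 3 of D14 only. Its values were -3.30, 2.64 and 2.94 in D14 pools 1, 2 and 3, against -4.87, -4.55 and -3.93 in D7 pools and -3.57, -4.59 and -3.74 in Control pools. D14 pool 1 was therefore only 0.27 above the nearest Control pool, and was not well above background there. The mean difference from Control, 4.72 (SE 1.40), thus comes from pools 2 and 3, with an SD of 3.52 among the D14 arrays. The measured probe was well above background on no D7 array and on 1 Control array, so this size is not exact. The other probes of this sequence, which did not enter its value, were each well above background on 2 D14 arrays and on no D7 or Control array. A further raised sequence had the same shape, with -3.27, -0.73 and -0.90 in D14 pools 1, 2 and 3, means of -3.98 ± 0.66 in D7 and -4.88 ± 0.61 in Control (SD, n = 3 each). It was not well above background on D14 pool 1 or on any Control array, so its difference from Control is not given as an exact size.

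Among lowered sequences, an example well above background on every array had 3 probes and read 2.31, 2.20 and 2.33 in D14 pools 1, 2 and 3, against 3.99, 3.40 and 3.10 in D7 pools and 4.86, 3.83 and 4.36 in Control pools. The D7 pools lay above all D14 pools and overlapped with the lowest Control pool alone. The means were 2.28 ± 0.07 in D14, 3.50 ± 0.45 in D7 and 4.35 ± 0.51 in Control (SD, n = 3 each). The lowered sequence with the highest D14 mean read 6.46, 5.87 and 4.51 in D14 pools 1, 2 and 3, against means of 6.77 ± 0.24 in D7 and 6.73 ± 0.21 in Control (SD, n = 3 each). In it, 1 of 3 probes had a value of 1.33 on D14 pool 3, where the other probes read 6.50 and 5.70. Those other probes differed from Control by -0.55 and -0.52, so this sequence was selected through 1 probe on 1 array.

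**Figure D3:**
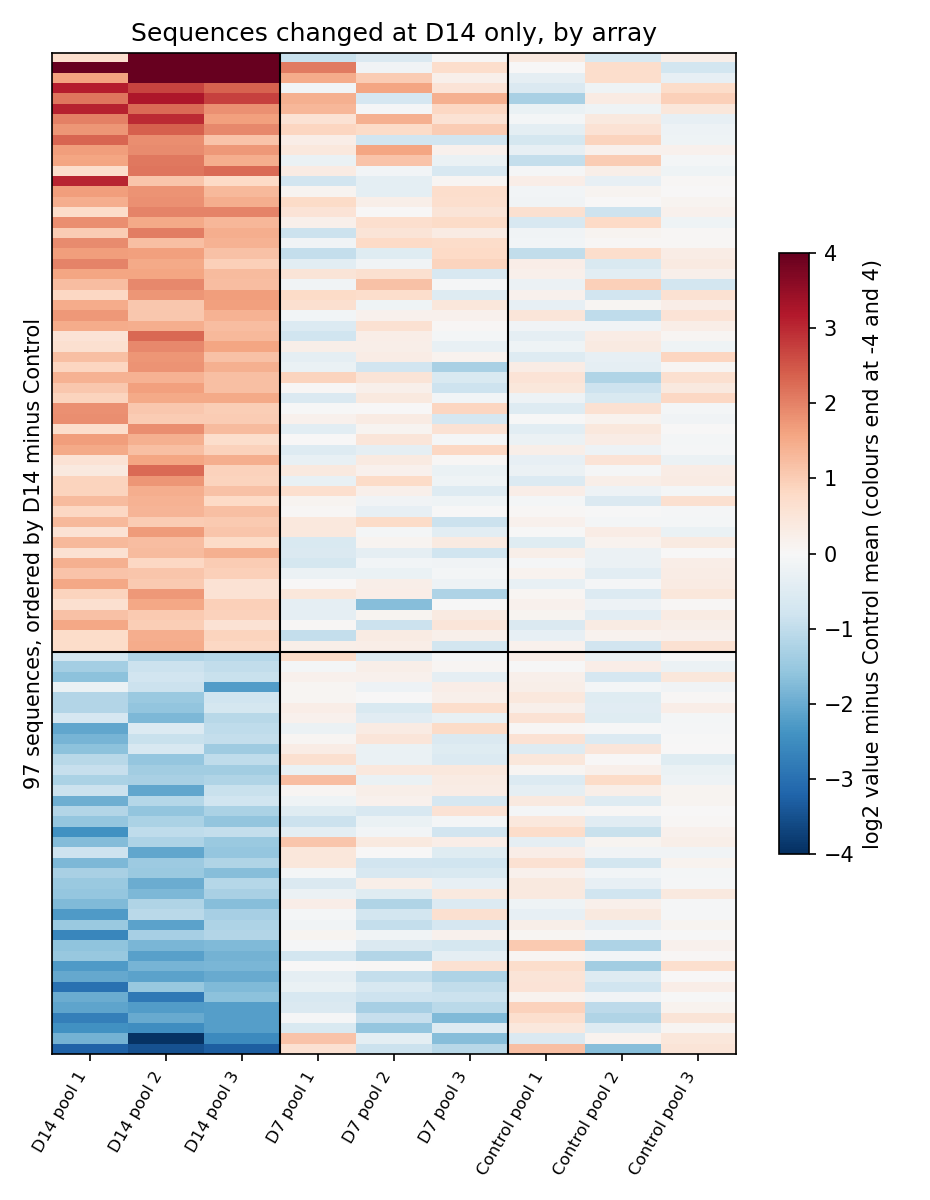
Value of each of the 97 sequences on each array minus its Control mean (colour, log2, ends of the scale at -4 and 4), with sequences in rows ordered by D14 minus Control and arrays in columns as D14, D7 and Control pools. The 58 raised rows are red and the 39 lowered rows blue in the D14 columns, while the D7 columns are pale and of mixed sign.

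At day 7 the sequences lay on both sides of the Control mean. Among the 58 raised sequences the D7 mean was above the Control mean in 34 and below it in 24, with a median D7 minus Control of 0.05 (range -0.77 to 0.90). The median over all measured sequences was also 0.05, with 5292 of 9955 above 0. Among the 39 lowered sequences the D7 mean was below the Control mean in 27 and above it in 12, with a median of -0.17 (range -0.99 to 0.59). The D7 mean was more than 0.5 beyond Control in the D14 direction in 10 raised and 8 lowered sequences, and more than 0.5 in the opposite direction in 3 raised and 1 lowered. All 3 D7 arrays lay on the D14 side of the Control mean in 7 raised and 12 lowered sequences, and all on the other side in 5 raised and 4 lowered. The selection keeps D7 within 1 of Control, so these are descriptions of the sequences it kept. For the counts past 0.5 and of D7 arrays all on the same side, no share over all measured sequences is given. They are therefore not read as a trait of the chosen sequences.

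Detection differed between the directions, which the selection partly set. It asks raised sequences to be dimmer, and lowered ones to be brighter, on D7 and Control arrays than on D14 arrays. Here and below, unless stated otherwise, a sequence counts as well above background on an array where any of its measured probes was. All 58 raised sequences were well above background on D14 pools 2 and 3, and 41 on D14 pool 1. On the D7 arrays the count was between 33 and 45 of 58, and on the Control arrays it was 34, 32 and 52 for pools 1, 2 and 3. The 39 lowered sequences were all well above background on every D7 and Control array and on D14 pools 2 and 3, and 17 of 39 were on D14 pool 1. Over all measured sequences the share on D14 pool 1 was 57.7%, and on the other arrays between 78.8% and 98.1%.

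**Figure D4:**
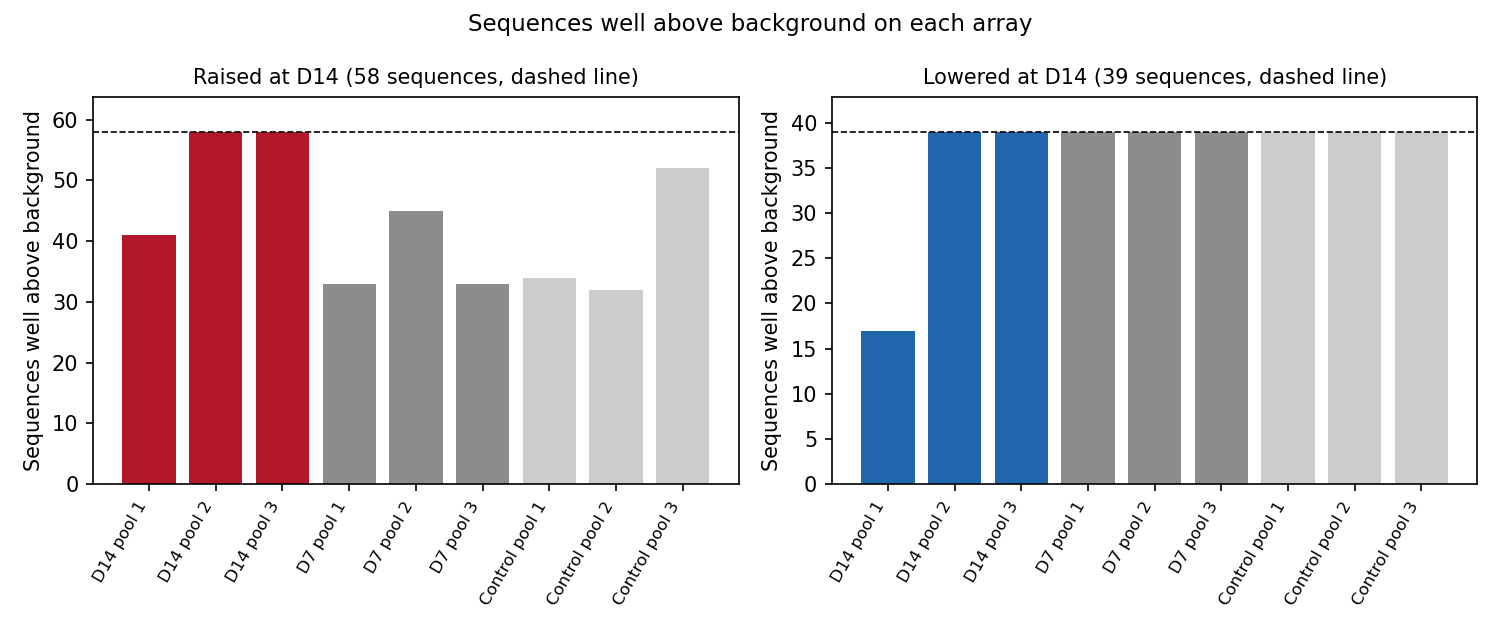
Number of raised (left, of 58) and lowered (right, of 39) sequences well above background in any measured probe on each array. The D14, D7 and Control pools lie along the x axis, and the dashed line is at the size of the set. Fewer are detected on D14 pool 1, with 41 raised and 17 lowered, than on the other D14 arrays.

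Because a sequence had to be well above background on 3 arrays, some raised sequences entered through D14. Of the 58, 21 would not have been measured without the D14 arrays and 37 would have been. Grouped by the 6 D7 and Control arrays, 18 raised sequences were well above background in any measured probe on 1 or 2 of them, 14 on 3 to 5 and 26 on all 6. The value of a sequence can thus include probes that were at background. These 3 sets had a median mean level of -2.62, -1.63 and 0.57 in D14, and of -4.16, -3.11 and -1.0 in Control. The 26 detected on all 6 differed from Control by a median of 1.30 and by at most 2.02, so the 7 raised differences above that size belonged to sequences that were dim outside D14. Of the raised sequences, 6 failed that mark on every Control array, and 7 on every D7 array, in the probes that entered their values. Most of these were also not well above background on D14 pool 1, so no separate range of folds is given for them. Of the 6, 1 had a further probe, outside its value, that was well above background on 1 Control array. On all 9 arrays and in all measured probes, 20 raised and 12 lowered sequences were well above background, against 4275 of all 9955.

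Sequences of both directions were read near background on D14 pool 1, where probes not above background had a median of -3.12. In the 17 raised sequences that were not well above background there, the value on D14 pool 1 had a median of -3.22, against -2.30 and -2.61 on D14 pools 2 and 3. Their gap to the nearest other array had a median of 0.13 and reached 0.49 at most, while the 41 others had a median gap of 0.41. In the 22 lowered sequences that were not well above background on D14 pool 1, the value there had a median of -2.89, against -2.36 and -2.28 on pools 2 and 3. The median D14 minus Control was -1.49 in these 22 and also in the 17 other lowered sequences. What background on D14 pool 1 contributed to the choice of sequences was not tested.

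Among the chosen sequences, pool 2 was most often the D14 array farthest from the other groups, in both directions. The counts of this kind, and those of the D14 span, are not given over all measured sequences. They are therefore not read as particular to the chosen ones. Among the 58 raised sequences the highest D14 array was pool 2 in 32, pool 1 in 22 and pool 3 in 4. The lowest was pool 1 in 28, pool 3 in 25 and pool 2 in 5. Among the 39 lowered sequences the lowest D14 array was pool 2 in 21, pool 1 in 15 and pool 3 in 3. The 3 D14 arrays spanned less than 0.5 in 9 raised and 13 lowered sequences, and more than 2 in 3 raised and 1 lowered. The median SD among arrays of the raised sequences was 0.42 in D14, 0.53 in D7 and 0.39 in Control, and of the lowered ones 0.35 in D14, 0.43 in D7 and 0.46 in Control. Over all measured sequences it was 0.34 in D14, 0.39 in D7 and 0.35 in Control.

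Within slides, where D14 and D7 arrays were hybridised side by side, the raised sequences had a median D14 minus D7 of 1.21 on slide 1, 1.36 on slide 2 and 1.46 on slide 3. The lowered sequences had medians of -1.08, -1.68 and -1.09 on slides 1, 2 and 3, and all measured sequences -0.07, -0.03 and -0.01. Against Control on the same slide, the raised sequences had a median difference of 1.25 on slide 1 and 1.69 on slide 3, and the lowered ones -1.41 and -1.28. The selection places every D14 array beyond all others, so a difference on each slide was fixed by it and only the sizes are described here. For Seabream_2006-01-03-CL5059Contig1 D14 minus D7 was 1.83, 3.25 and 1.13 on slides 1, 2 and 3. For cDN11P0004I17.F.ab1 it was 1.22, 0.77 and 1.68, for cDN14P0004O13.F.ab1 -2.20, -3.84 and -2.63, and for Seabream_2006-01-03-CL4069Contig1 -1.36, -2.70 and -1.19. In 3 of these 4 the difference was widest on slide 2, which holds D14 pool 1 and D7 pool 1, so either array can widen it.

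**Figure D5:**
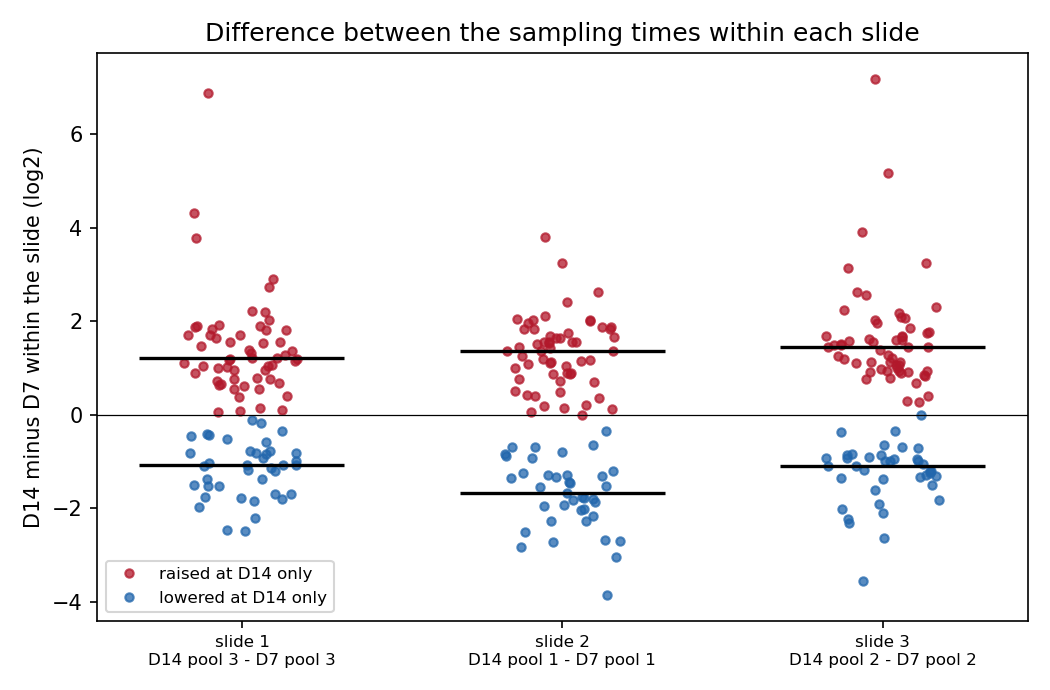
D14 minus D7 of each sequence between the arrays of the same slide (y axis, log2), for the raised (red) and lowered (blue) sequences on slides 1, 2 and 3 along the x axis, with bars at the medians. The medians lie between 1.21 and 1.46 for raised and between -1.68 and -1.08 for lowered sequences.

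Several sequences were read by more than 1 probe, which gives repeated readings of the same pools. Of the raised sequences 33 had 1 measured probe, 5 had 2 and 20 had 3, and of the lowered ones 21 had 1 and 18 had 3. In all 25 raised and all 18 lowered sequences with several measured probes, each probe differed from Control and from D7 in the direction of the sequence. The selection used the mean of these same probes, so it largely set their direction, and their agreement is described without a test. Every probe was past 1 in both differences in 14 of those 25 and 11 of those 18, so in the remaining sequences some probes fell short of the size that the mean reached. The differences from Control of the probes of a sequence spanned a median of 0.32 in both directions. The widest span was 1.17 in a raised sequence, and 2.74 in a lowered one whose probes differed from Control by -1.36, -2.93 and -4.10.

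Probes that were too dim to enter a value were not used in the selection, although they were read on the same arrays and pools. There were 17 of them in 11 raised sequences and none in a lowered one, each well above background on at most 2 arrays. Of the 17, 12 were well above background on 1 or 2 D14 arrays and on no D7 or Control array, 1 on a Control array alone and 4 on no array. Of the 4, 2 belong to a raised sequence whose only measured probe was 2.70 above Control in D14. Its change was thus read by 1 probe and not seen in those 2, which were at background throughout. All 17 probes belong to sequences chosen as high in D14. D14 pools 2 and 3 also had 65.2% and 61.7% of spots well above background, against 49.1% to 63.0% on D7 and Control arrays. No share over all unused probes is given, so the 12 are a description only. The differences of the 17 probes between groups were mostly taken against readings at background and are not given.

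Technical readings of the chosen sequences were set beside those of all measured sequences. Where a probe had 2 spots, they differed by a median of 0.20 in raised, 0.12 in lowered and 0.14 in all measured sequences, so the typical spot difference was well under 1. The 90th percentile of that spot difference was 0.98 in raised, 0.40 in lowered and 0.59 in all. The median local background around their spots was 20 to 21 on D14, 20 to 23 on D7 and 19 to 26 on Control arrays, with the ranges of raised and lowered sequences inside these. The main classes of names on the array all occurred in both directions. By name, 31 raised and 21 lowered sequences were clones of the cDN series (53.4% and 53.8%, against 49.7% of all measured). A further 14 raised and 7 lowered were contigs named by number alone (24.1% and 17.9%, against 24.5%), and 12 raised and 9 lowered were contigs of the Seabream assembly (20.7% and 23.1%, against 22.4%).

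Many of the sequences lay near an edge of the selection. Among the 97, 33 had a difference from Control or D7 under 1.1 in size, and the gap between D14 and the nearest other array was under 0.1 in 14 and at least 0.5 in 34. The smallest gap inside was 0.002, and just outside the nearest sequence overlapped by 0.005 (a gap of -0.005). Sequences just inside and just outside an edge were thus almost alike in value. The smallest difference from Control was 1.01 inside and 0.99 just outside, and from D7 1.00 inside and 0.99 just outside. The largest D7 minus Control was 0.99 in size inside and 1.03 just outside. Sequences that met every condition but the one on Control numbered 56, but the one on D7 104, but the one on overlap 104 and but the one on D7 near Control 5.

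The count of 97 varied when single arrays were left out. Leaving out any array also loosens the condition on overlap, so a rise in the count is partly built in. Leaving out D14 pool 1 gave 283 sequences, of which 77 were among the 97, leaving out D14 pool 3 gave 168 and leaving out D7 pool 3 gave 165. With any other array left out the count was between 91 and 132. Of the 97, 21 were selected whichever array was left out, 12 raised and 9 lowered. The split between directions varied with the scaling. It was 58 raised and 39 lowered with the 75th percentile, and 56 and 42 with that percentile over detected probes. It was 82 and 24 with the array median, and 47 and 55 with quantile normalization. The split also varied with the input signal under the same 75th percentile. It was 5 and 13 with normexp background correction, and 40 and 89 with the authors' deposited table brought to log2.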

How the data were processed

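Agilent Feature Extraction 10.7.3.1 produced, per the file headers, the deposited spot intensity (background-subtracted Cy3 signal) and the flags for outliers and for signal well above background. The authors' deposited value table holds log2 intensities, except for the column of D7 pool 3, which is another deposited log scale, a score here (base 20, found by setting it against the scanner intensities); it was used only as an alternative. Signals of Control pools 1 and 2 and D14 pool 3 are deposited with 3 significant digits.

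From these, log2 of the processed signal minus the array's 75th percentile over 43803 non-control spots was computed, without outlier spots, and averaged per probe (28793) and then per sequence (15156) over its probes well above background on at least 3 arrays. The 9955 measured sequences were fitted with limma 3.58.1 in R 4.3.3 (lmFit and eBayes, 3 group means, 9 arrays), p-values being adjusted by Benjamini-Hochberg over all of them. The fit gives standard errors and shares of calls, and no test of the 97 sequences. For a group at background, the fold was also taken with a floor. Each array of that group was then set no lower than the lowest value of a probe well above background there. The floor is not a strict detection limit. Groups and pool numbers came from the sample titles, and slides from the file headers. The design text states 36 fish, while the pools make 18. The 97 sequences, the lists and the rules were chosen with earlier results of these data known; the named sequences are those with the widest gap, 2 in each direction, as described, and other sequences were singled out after their values were seen. The fit was checked on simulated data. Alternatives covered scaling, background correction, filters, probe choice, blocks, variance model, array weights, thresholds and each array left out. Normexp used median signals with an offset of 50, since the data used here did not hold the planned mean signals. The offset is added to every spot and narrows log2 differences, most at dim spots. What the offset and the background correction each contributed to the smaller differences was not tested. Figures were drawn with matplotlib 3.10.9. No nucleotide sequence is shown, as none was in the files used here.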

Additional observations from a re-analysis of the deposited data

How the results depend on the processing

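The 97 sequences rest on few arrays and on the scale of dim signals. Their number was 18 with normexp background correction (11 of the 97), 14 with a threshold of 1.5, and 91 to 283 with each array left out. With the D7 mean kept within 0.5 of the Control mean it was 75, with 45 raised and 30 lowered. With slide as a block and no condition on overlap it was 201 (88 of the 97). Dropping the condition on overlap alone, without a block, also gave 201. Median scaling gave 106 (81 of the 97), the percentile over detected probes 98 (92), quantile normalization 102 (73), the authors' deposited values 129 (60), a stricter filter 84 (79), no filter 141 (93) and the brightest probe 100 (84). Keeping outlier spots gave the same 97. Of the 97, 43 were selected under each of median scaling, the percentile over detected probes, quantile normalization and the authors' deposited values. The last of these changes the input signal and not the scaling. Of 160 alternative differences of the 4 named sequences, 5 moved by more than the spread, all with normexp, and none reversed. The spread is the largest SD of any group, so the -2.19 of cDN14P0004O13.F.ab1 with normexp counts as not moved. Many alternatives could not move a value, such as leaving out a D7 array for the difference from Control. The 4 were chosen for the widest gap, so the lack of a reversal is no test of them. The smallest sizes were those with normexp: 1.17 against Control and 0.76 against D7 for Seabream_2006-01-03-CL5059Contig1, 0.78 and 0.88 for cDN11P0004I17.F.ab1, -2.19 and -1.71 for cDN14P0004O13.F.ab1, and -0.92 and -0.96 for Seabream_2006-01-03-CL4069Contig1. Of these 4, only cDN14P0004O13.F.ab1 then kept both differences at 1 or more in size. Normexp moved the median D14 minus Control of all sequences to 0.17, against 0.02 as reported, and the authors' table moved the median D14 minus D7 to -0.15, against -0.04.

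For D14 against Control, limma called 42 sequences. It called 27 with quantile normalization, 6 with normexp, 2 with the authors' table, 100 with a stricter filter, 0 with no filter (1500 at an unadjusted p under 0.05), 112 with a variance trend, 1209 with array weights and 0 to 76 with each array left out. For D14 against D7 it called 0, and 1 with a stricter filter, 60 with array weights and 0 to 1 with each array left out. For D7 against Control it called 44, and 17 with quantile normalization, 8 with normexp, 5 with the authors' table, 0 with no filter (1151 unadjusted), 29 with the brightest probe, 11 with slide as a block, 21 with scan day as a block, 1646 with array weights and 0 to 128 with each array left out. The cause of these moves was not tested. Pool numbers are shared by the groups without a stated pairing. The deviations of same-numbered arrays correlated between -0.29 and 0.42, and 14 of 18 best matches were to the own number. Except for Control pool 1, arrays of the same number lay on the same slide, so pool number and slide cannot be told apart here. With pool number as a replicate block the calls were 38 for D14 against Control, 0 for D14 against D7 and 10 for D7 against Control. Signal over background limits the raised sequences that were dim outside D14 and the readings of D14 pool 1.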
